A study of Mus musculus with 2 samples.

Results

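Alveolar type 2 (AT2) cells line the air sacs of the lung and secrete surfactant, the lipid and protein film that keeps the air sacs open. The cells described here are the AT2 cells that gave the largest share of their transcripts to 4 major histocompatibility complex (MHC) class II genes, Cd74, H2-Aa, H2-Ab1 and H2-Eb1. A cell was a barcode with at least 2000 UMIs (unique molecular identifiers, the count of distinct transcripts captured), at least 500 detected genes and at most 20% mitochondrial UMIs. An AT2 cell was one with at least 15% of its UMIs in Sftpc, the surfactant protein C gene. In each library the top 10% of AT2 cells by the summed share of the 4 genes were taken, and are called MHC II-high cells below. They numbered 1670 of 16715 AT2 cells and of 19152 cells in all, with 671 in the tumor-bearing mouse and 999 in the control mouse. The other 15045 AT2 cells, 6048 and 8997, were set against them.

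The study sequenced sorted lung epithelial cells of a mouse with a tumor at a distant site and of a mouse without one, with 1 library for each. Both mice were wild-type C57BL/6; their age and sex were not used here. The tumor-bearing mouse had received 1000000 LLC cells, a mouse Lewis lung carcinoma line carrying luciferase, under the skin of its back, and was sampled at day 14, while the control mouse was untreated. Lungs were digested and CD45- SftpC+ cells were sorted, so leukocytes, which carry CD45, were gated out of both. The libraries held 84448360 and 91498124 UMIs, and their cells had medians of 8696 and 6869 UMIs. The 2 libraries shared 128 cell barcodes, close to the 122 that independent draws would give. Since each group had 1 library, no test across mice was possible, and a difference between the libraries and one between the mice cannot be told apart. All intervals below are exact 95% intervals for counting error within a library.

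MHC class II molecules present peptides from taken-up proteins to CD4 T cells. H2-Aa and H2-Ab1 encode the alpha and beta chain of I-A, and H2-Eb1 the beta chain of I-E. Cd74 encodes the invariant chain that fills the groove of a new class II molecule, and the H2-DM proteins help to exchange its remnant for a peptide. Class II is best known from dendritic cells, macrophages and B cells, whose transcription of it depends on the coactivator CIITA. AT2 cells of mouse and human are known to carry class II molecules without infection.

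The class II genes are read from promoters with a conserved X box followed by a Y box, on which RFX and NF-Y factors assemble and recruit CIITA. The stretches below are shown because they hold this pair of elements in 2 genes of the rule and in 2 further class II genes that were higher in the same cells. They come from the RefSeq promoter windows on GRCm38.p6, 250 bases before to 50 after a gene's start, and run 5′ to 3′ on the gene's own strand. Capitals mark X box letters (AAC, then 2 or 3 bases, then TGANG) and Y box letters (ATTGG).
H2-Aa: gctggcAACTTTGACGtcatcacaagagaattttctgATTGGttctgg
H2-Eb1: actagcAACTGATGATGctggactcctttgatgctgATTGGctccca
H2-DMb1: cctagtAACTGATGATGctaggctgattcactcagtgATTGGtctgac
H2-DMb2: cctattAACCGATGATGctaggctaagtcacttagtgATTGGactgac
They lie at chr17:34287861-34287908 on the minus strand for H2-Aa and at chr17:34305772-34305818, chr17:34153093-34153140 and chr17:34145122-34145169 on the plus strand for H2-Eb1, H2-DMb1 and H2-DMb2. The X letters began 79, 89, 92 and 121 bases before the RefSeq start in that order, and 21, 19, 20 and 20 bases separated them from the Y letters. The pattern was spelled after these windows had been read. Searched on both strands, the X letters stood in 5.77% and the Y letters in 37.4% of 32851 promoter windows. The pair, with 10 to 25 bases between, stood in 63 windows, 0.192%, of 56 genes. It was also in the window of H2-Ob, and not in the windows of H2-DMa, H2-Oa and H2-Eb2. Of the 12 genes called higher below, 9 had a window and 2 of these held the pair. H2-Ab1, Cd74, Clu, Arg2 and Ctsh had no window in the table.

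The 4 genes of the rule had chosen the cells, so their values are a description. MHC II-high cells gave a median of 1.64% of their UMIs to them in the tumor-bearing mouse, against 0.831% in the other AT2 cells, and 1.76% against 0.878% in the control mouse. In UMIs this was a median of 149 a cell against 74, and 129 against 59. The last cells inside the limit had 1.4345, 1.4358 and 1.4372% in the tumor-bearing mouse and the first ones outside 1.4337, 1.4336 and 1.4330%. In the control mouse the values were 1.5380, 1.5381 and 1.5382% inside and 1.5376, 1.5374 and 1.5373% outside. The shares thus ran on without a gap, up to 3.54% and 3.67%. Their SD over all AT2 cells was 0.406 and 0.429 percentage points, where counting error alone would give 0.106 and 0.124. Of all AT2 cells, 1 in each library had no UMI of the 4 genes.

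**Figure D1:**
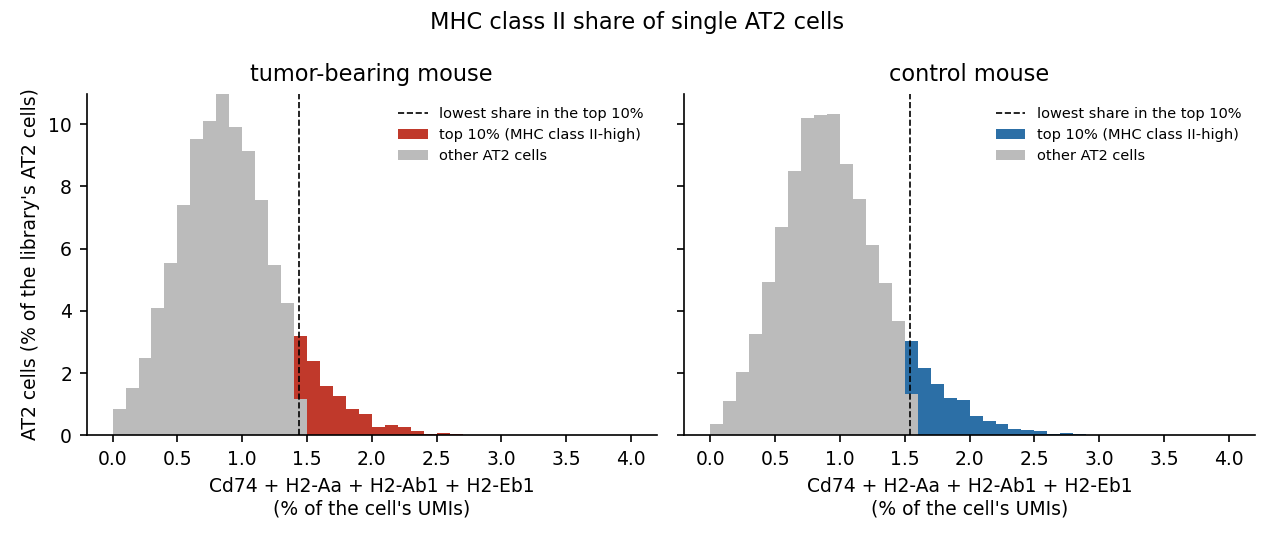
Share of each AT2 cell's UMIs in Cd74, H2-Aa, H2-Ab1 and H2-Eb1 (x axis, %) in bins of 0.1, with the percentage of the library's AT2 cells in each bin (y axis). Tumor-bearing library left, control mouse right; coloured bars are the 671 and 999 MHC II-high cells, grey bars the other AT2 cells, and the dashed line is the lowest share among MHC II-high cells. Each library shows a single peak with a tail to the right and no gap at the line.

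UMIs of all cells in a set were added up and scaled to a common total (CPM). H2-Ab1, on chromosome 17 at 34257689 to 34269419, stood at 1810 CPM in MHC II-high cells and 779 CPM in the other AT2 cells of the tumor-bearing mouse, and at 1950 and 844 CPM in the control mouse. H2-Eb1 had 963 and 434 CPM in the tumor-bearing mouse and 1067 and 483 CPM in the control mouse. H2-Aa had 2479 and 1178 CPM, then 2704 and 1276 CPM, and Cd74 11851 and 5915 CPM, then 12641 and 6291 CPM, in the same order. The 4 genes were thus 2.00 to 2.32 times as high in both libraries.

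To see whether a class II gene was also higher in cells chosen without it, cells were ranked again with that gene left out. In the top 10% by the 3 H2 genes alone, Cd74 was 1.79-fold higher than in the remaining AT2 cells of the tumor-bearing mouse (1.77 to 1.80) and 1.78-fold higher in the control mouse (1.77 to 1.79). In the top 10% by Cd74 alone, H2-Aa, H2-Ab1 and H2-Eb1 were 1.93, 2.14 and 2.03-fold higher in the tumor-bearing mouse and 1.94, 2.12 and 2.02-fold higher in the control mouse. Of the MHC II-high cells, 69.3% in each library were also in the top 10% by the H2 genes, and 84.7% and 84.8% in that by Cd74. Cd74 was thus higher in cells that the H2 genes had chosen, and each of the H2 genes in cells that Cd74 had chosen.

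In depth and quality MHC II-high cells lay close to the other AT2 cells. They had medians of 8839 UMIs and 2043 genes against 8990.5 and 2008 in the other AT2 cells of the tumor-bearing mouse, and of 7162 UMIs and 1826 genes against 6926 and 1740 in the control mouse. Their median mitochondrial share was 2.88% against 3.07%, and 3.05% against 3.44%. Sftpc took 25.7% of UMIs against 26.8%, and 25.5% against 26.5%. With the highest Scrublet doublet scores marked, 5.07% of them against 6.99% of other AT2 cells were marked in the tumor-bearing mouse and 4.50% against 9.58% in the control mouse.

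A gene was called higher or lower when it had at least 50 CPM in either set, differed at least 1.5-fold and had Poisson intervals that did not overlap. The genes of the rule and Sftpc were left out. In the tumor-bearing mouse 14 of 1767 genes were higher (0.792%) and 5 were lower (0.283%), and in the control mouse 16 of 1831 were higher (0.874%) and 24 lower (1.31%). In both libraries 12 of 1709 genes were higher (0.702%), 3 were lower (0.176%), and 0 went opposite ways. The 12 were Areg, Clu, H2-DMb2, H2-DMa, H2-DMb1, H2-T23, Anxa1, Arg2, Ctsh, Krt18, Krt8 and Anxa5, and the 3 were Nrn1, Bex2 and Fabp5. In the top 20% of AT2 cells Anxa1, Anxa5, Arg2, Ctsh, Krt8 and Krt18 were not called, and with Sftpc at 25% or more of UMIs Anxa5, Ctsh, Krt8 and Krt18 were not. The 3 lower genes lost their calls in both of these settings, and when cells were ranked by the 3 H2 genes or after thinning. Under a 2-fold limit Areg alone was called. The cells were chosen from these same counts, so these calls describe them and are no test.

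**Figure D2:**
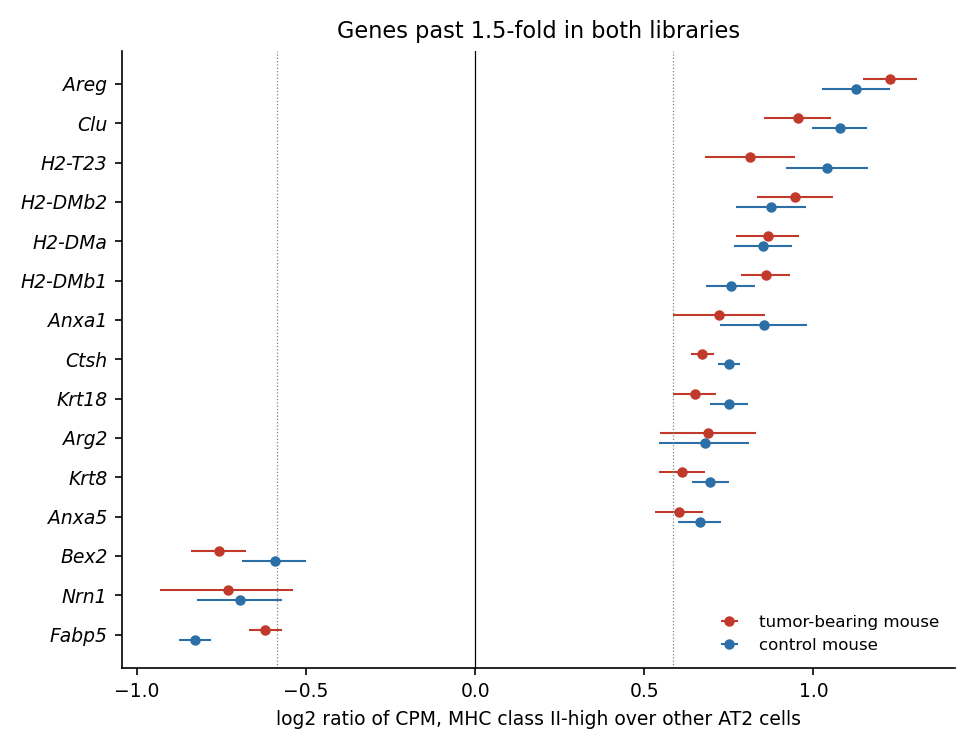
log2 ratio of summed CPM (x axis), MHC II-high over other AT2 cells, for the 15 genes past 1.5-fold (dotted lines) in both libraries, with exact 95% counting intervals. Red points are the tumor-bearing mouse and blue points the control mouse. Areg had the largest ratio in each library, and the 3 lower genes were Bex2, Nrn1 and Fabp5.

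Of the other genes of the class II pathway, those of peptide exchange stood out. H2-DMa, the alpha chain of DM, stood at 180 CPM in MHC II-high cells against 98.7 CPM in other AT2 cells of the tumor-bearing mouse, and at 182 against 101 CPM in the control mouse, ratios of 1.82 (1.70 to 1.94) and 1.80 (1.70 to 1.91). H2-DMb1, a DM beta chain, had 302 against 166 CPM and 257 against 152 CPM. H2-DMb2, the second DM beta chain, had 129 against 67.0 CPM and 126 against 68.5 CPM. The 2 beta chain genes are close copies, so reads may have been divided between them. They lie beside H2-DMa on chromosome 17, between 34119541 and 34160230.

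Ctsh, a lysosomal protease that in AT2 cells also processes surfactant proteins, was the other pathway gene past the limit. It stood at 1280 against 803 CPM in the tumor-bearing mouse and 1271 against 755 CPM in the control mouse, ratios of 1.59 (1.55 to 1.63) and 1.68 (1.65 to 1.72). Other proteases and the thiol reductase of the pathway lay near 1. Ctsd was at 1.08 and 1.13 times, Ctsl at 1.06 and 1.25 times, Ifi30 at 1.02 and 1.01 times, and Lgmn at 0.943 and 0.940 times the level in other AT2 cells. In all, 9 of 18 pathway genes reached 20 CPM in both libraries. Of the 9, 4 were called higher and 0 lower, where 0.702% and 0.176% of all 1709 genes with at least 50 CPM were. The median log2 ratio of the 9 was 0.16 for the tumor-bearing and 0.33 for the control mouse, where all 3845 genes of that level had 0.03 and 0.04.

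Regulators and companions of professional antigen presentation were near the detection limit. Ciita gave 30 and 50 UMIs over all MHC II-high cells of the tumor-bearing and the control mouse, Rfx5 gave 25 and 40, and H2-Oa, a modulator of DM, gave 1 and 12. Ctss, the protease that trims the invariant chain in dendritic cells and macrophages, gave 1 UMI in each, and H2-Ob gave 0. Of 12 costimulatory genes, only Icam1, an adhesion molecule, was measured, at 1.14 and 1.15 times the level in other AT2 cells. Cd80, Cd86, Cd274, Pdcd1lg2 and Tnfsf4 had no UMI in any MHC II-high cell of either library.

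Of class I genes, which present peptides from within the cell, 1 was called, and most others had ratios above 1 that missed the limit. Among all 1709 genes with at least 50 CPM, 0.702% were called higher in both libraries. H2-T23, the mouse Qa-1 molecule that NK cells and CD8 T cells read, was the single called one of 15 measured of 23. It stood at 91.5 against 52.1 CPM in the tumor-bearing mouse and 93.0 against 45.2 CPM in the control mouse, ratios of 1.76 (1.60 to 1.92) and 2.06 (1.89 to 2.24). The classical heavy chain genes H2-K1 and H2-D1 were at 1.40 and 1.38 times in the tumor-bearing and 1.43 and 1.42 times in the control mouse. B2m, the light chain, was at 1.23 and 1.29 times, and Psmb8, an immunoproteasome subunit, at 1.43 and 1.35 times. Of the 15, 14 lay above 0 on the log2 scale in both libraries, with medians of 0.31 and 0.37, where 47.2% of all 3845 genes of that level lay above 0 in both and their medians were 0.03 and 0.04. The exception was Canx, a chaperone of the endoplasmic reticulum, at 1.00 and 0.904 times. Class I genes are near copies of one another, so single members are uncertain. Genes of the interferon response, a pathway known to raise class I and class II, had medians of 0.06 and 0.15 over 6 measured of 28, with 0 called in both libraries, and 1 of the 6 reached the 50 CPM that a call needs.

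Areg, Gsta1 and Slpi had been given as further markers of these cells. Areg encodes amphiregulin, a ligand of the EGF receptor, and lies on chromosome 5 at 91139599 to 91148432. It stood at 262.5 CPM in MHC II-high cells against 112 CPM in other AT2 cells of the tumor-bearing mouse, and at 135 against 62.0 CPM in the control mouse. The ratios were 2.34 (2.21 to 2.47) and 2.18 (2.03 to 2.34). Slpi, a secreted inhibitor of neutrophil proteases, had 145 against 103 CPM and 120 against 105 CPM, ratios of 1.41 (1.31 to 1.51) and 1.14 (1.06 to 1.23), which missed the limit. Gsta1, a glutathione transferase, was nearly absent: 1 of 671 and 2 of 999 MHC II-high cells had a UMI of it, against 16 of 6048 and 23 of 8997 other AT2 cells. With so few UMIs its direction could not be told, and over the alternatives its log2 ratio lay between -1.99 and 2.17 in the tumor-bearing mouse and between -0.998 and 1.13 in the control mouse. Empty droplets, barcodes with 1 to 100 UMIs, held Gsta1 at 5.41 and 4.74 CPM, above its 0.164 and 0.274 CPM in MHC II-high cells.

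Most cells in each set of AT2 cells had no Areg UMI. In MHC II-high cells 48.6% had an Areg UMI against 29.0% of other AT2 cells in the tumor-bearing mouse, and 31.8% against 19.9% in the control mouse. With every cell thinned to 2000 UMIs these shares were 26.7% (23.4 to 30.2) against 13.03% (12.2 to 13.9), and 15.7% against 8.90%. Cells with at least 1% of UMIs in endothelial markers, whose medians were 3043 and 2502.5 UMIs, gave 1.27% (0.468 to 2.75) in the tumor-bearing mouse and 0 of 54 cells in the control mouse. Cells with at least 1% of UMIs in ciliated cell markers, 216 and 280 cells with medians of 5142 and 4363 UMIs, gave 13.9% (9.57 to 19.2) and 11.8% (8.25 to 16.2), at 172 and 120 CPM of Areg. At least 5 Areg UMIs were seen in 16.7% against 6.93% of cells, and in 6.71% against 2.20%. Conversely, of all AT2 cells with at least 5, 112 of 531 (21.1%) and 67 of 265 (25.3%) were MHC II-high, where all AT2 cells have 10% by the rule.

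The MHC II-high cells with at least 5 Areg UMIs differed from those without any in a further group of genes, which was picked after values had been seen. In the tumor-bearing mouse Krt8 stood at 540 CPM in the 112 Areg-rich cells against 234 CPM in the 345 cells with no Areg UMI, and in the control mouse at 825 CPM in 67 cells against 338 CPM in 681 cells. Tnfrsf12a, the receptor for the cytokine TWEAK, stood at 135 against 35.7 CPM and 103 against 39.1 CPM, and Anxa1 at 125 against 54.1 CPM and 143 against 62.3 CPM. Fos, an immediate early gene that tissue digestion is known to induce, went with them, at 1386 against 720 CPM and 1333 against 630 CPM, and its part in the result was not tested. H2-DMb1 did not follow Areg within the MHC II-high cells: it had 317 against 291 CPM and 248 against 252 CPM, with overlapping intervals. H2-K1 had 477 against 523 CPM and 780 against 861 CPM, also with overlapping intervals. Ctsh, another gene of the class II pathway, did follow Areg. It had 1374 against 1171 CPM and 1533 against 1183 CPM, with intervals apart in both libraries. The rule had already set a narrow range of class II share, with medians of 1.68% against 1.62% and 1.74% against 1.75%, which limits such differences. The Areg-rich cells were deeper, with medians of 9597 against 8504 UMIs and 7725 against 7011 UMIs.

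Genes of the alveolar transitional state had the highest medians of all lists beside the genes of the rule. This state, known from mouse lung injury, lies between AT2 and flat alveolar type 1 (AT1) cells and is marked by Krt8. Of 20 listed genes 15 were measured, 4 were called higher in both libraries and 0 lower, and all 15 lay above 0 in both, with medians of 0.48 and 0.51. Of all 3845 genes of that level, 47.2% lay above 0 and 28.6% below 0 in both. Of the 1709 genes with at least 50 CPM, 0.702% were called higher in both. The list summed to 3159.5 CPM in MHC II-high cells against 2355 CPM in other AT2 cells of the tumor-bearing mouse. In the control mouse it summed to 3346 against 2407 CPM. Empty droplets held it at 2807 and 3039 CPM, and the part of this free RNA in the result was not tested. Clu, a secreted chaperone, stood at 165 against 85.3 CPM in the tumor-bearing mouse and 205 against 96.97 CPM in the control mouse, ratios of 1.94 (1.81 to 2.07) and 2.11 (1.99 to 2.23). Krt8, a keratin of simple epithelia on chromosome 15, had 336 against 220 CPM and 435 against 269 CPM, and Krt18, its partner in the filament, 375 against 239 CPM and 410 against 243 CPM. Anxa1, a phospholipid-binding protein that dampens inflammation, had 86.4 against 52.4 CPM and 81.9 against 45.3 CPM. The related Anxa5 was at 1.52 and 1.58 times. Tnfrsf12a was at 1.91 and 1.81 times but stayed under 50 CPM in the control mouse. Of the 4 called, Clu lost its call just with a 2-fold limit, and Anxa1 also in the top 20%, at 1.40 times in the tumor-bearing mouse. Krt8 and Krt18 lost theirs in the top 20%, when cells were ranked by the 3 H2 genes, and with Sftpc at 25% or more of UMIs, at 1.25 and 1.32 times in the tumor-bearing mouse. Krt18 also lost it when ranked by Cd74 or after thinning. Krt19 and Lgals3 were at 1.40 and 1.45 times in the tumor-bearing and 1.44 and 1.45 times in the control mouse.

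Of 10 AT1 genes 5 were measured, with 3 above 0 and 2 below 0 in both libraries and 0 called in both. Aqp5, a water channel, and Ager were at 1.24 and 1.19 times in the tumor-bearing and 1.25 and 1.21 times in the control mouse. Hopx, a cofactor that marks AT1 cells, was lower, at 83.6 against 151 CPM and 100 against 140 CPM, ratios of 0.553 (0.505 to 0.605) and 0.712 (0.660 to 0.768). With AT2 cells taken at 25% or more of UMIs in Sftpc, Hopx was at 0.972 times in the tumor-bearing mouse. Empty droplets held it at 380 and 365 CPM.

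Arg2, a mitochondrial arginase, stood at 78.4 against 48.6 CPM in the tumor-bearing mouse and 74.5 against 46.5 CPM in the control mouse, ratios of 1.61 (1.46 to 1.78) and 1.60 (1.46 to 1.75). The remaining lists had no gene called in both libraries. The 50 CPM that a call needs was reached by 15 of 18 measured immediate early and 9 of 14 glutathione genes. It was reached by 7 of 7 heat shock genes, 2 of 6 NF-kB targets and 4 of 10 fatty acid oxidation genes. For cell cycle, antimicrobial and acute phase, and chemokine genes the counts were 3 of 3, 6 of 7 and 2 of 3. Immediate early genes had medians of 0.08 and -0.02, glutathione genes 0.04 and 0.13, and heat shock genes 0.05 and 0.10. NF-kB targets had 0.05 and 0.07, and fatty acid oxidation genes 0.01 and 0.22. Cell cycle genes had -0.19 and 0.09 over 3 measured members, and antimicrobial and acute phase genes -0.12 and -0.02. Among the last, Lcn2, which binds bacterial iron carriers, was at 1.29 and 1.26 times, and Hp, haptoglobin, at 0.717 and 0.704 times. Chemokine genes had 0.44 and 0.25 over 3 measured members. Cxcl2 was not among the 3, as it stood at 11.4 against 8.70 CPM in the control mouse, under the 20 CPM needed. It was past the limit in the tumor-bearing mouse, at 63.0 against 33.9 CPM or 1.86 times (1.66 to 2.08). There it was at 1.22 times without the cells that had a leukocyte UMI.

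**Figure D3:**
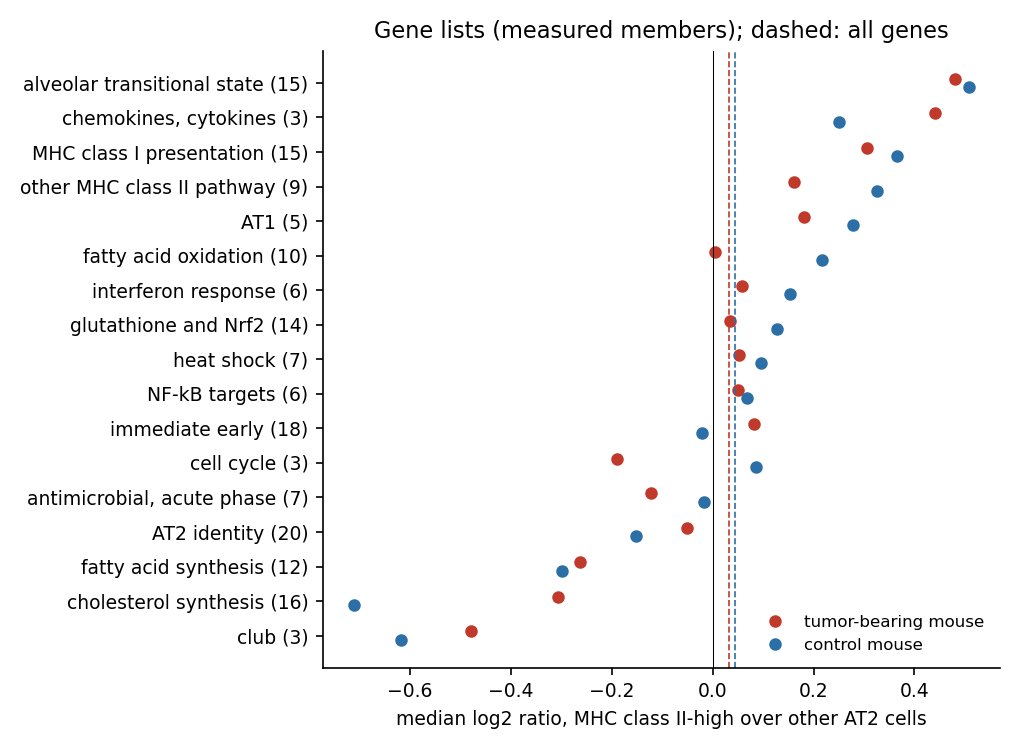
Median log2 ratio (x axis), MHC II-high over other AT2 cells, for each gene list with at least 3 measured members, whose number is in parentheses, without the 4 genes of the rule. Red points are the tumor-bearing mouse, blue points the control mouse, and dashed lines the medians of all 3845 genes. The alveolar transitional list lay farthest right, at 0.48 and 0.51, and the cholesterol and club cell lists farthest left.

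The 3 genes called lower in both libraries were Fabp5, Bex2 and Nrn1. Fabp5, a fatty acid carrier on chromosome 3, stood at 594 against 914 CPM in the tumor-bearing mouse and 506.5 against 900 CPM in the control mouse, ratios of 0.650 (0.628 to 0.672) and 0.563 (0.544 to 0.582). It was the single called one of 20 measured AT2 identity genes, of which 9 lay above 0 and 11 below 0 in both libraries. Lyz1, a lysozyme, had 3458 against 4950 CPM and 2049 against 3564 CPM, and passed the limit in the control mouse, at 0.575 times. Hc, complement C5, was at 0.667 and 0.652 times. The surfactant protein genes Sftpb and Sftpd went the other way by little, at 1.10 and 1.15 times in the tumor-bearing and 1.12 and 1.20 times in the control mouse. Abca3, the lipid pump of lamellar bodies, was at 0.808 and 0.796 times.

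Bex2, an adaptor protein gene of chromosome X, stood at 209 against 354 CPM and 133 against 200 CPM, ratios of 0.591 (0.558 to 0.626) and 0.663 (0.620 to 0.707). Nrn1, which encodes neuritin, had 37.2 against 61.8 CPM and 76.0 against 123 CPM, ratios of 0.602 and 0.617. The ratio of each gene was close in both mice, while its level differed between them.

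Fatty acid synthesis genes had medians of -0.26 and -0.30, with 10 of 12 measured genes below 0 in both libraries and 0 called in both. Of all 3845 genes with at least 20 CPM, 28.6% lay below 0 in both. Of the 12, 7 reached the 50 CPM that a call needs. Fasn, the fatty acid synthase, was at 0.854 and 0.770 times, and Scd1, a desaturase, at 0.833 and 0.832 times. Cholesterol synthesis genes, a list added after values had been seen, had medians of -0.31 and -0.71, with 15 of 16 below 0 in both. Of the 16, 5 reached 50 CPM, and 0 were called in both. Hmgcs1, an early enzyme of the pathway, stood at 55.6 against 68.6 CPM in the tumor-bearing mouse and 35.1 against 61.0 CPM in the control mouse, ratios of 0.810 (0.723 to 0.906) and 0.575 (0.505 to 0.653).

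Ranking the cells by other genes gave the same sides. It used the same cells and counts and the same class II limit, so the overlaps restate the ratios above and are no separate support. The top 10% of AT2 cells by the transitional list held 22.8% MHC II-high cells (19.7 to 26.2) in the tumor-bearing mouse and 23.9% (21.3 to 26.7) in the control mouse. By class I genes these shares were 23.4% and 24.7%, and by the further class II pathway genes 34.4% and 35.0%. Among the top 10% by Lyz1 only 6.26% and 5.61% were MHC II-high, by fatty acid synthesis genes 4.77% and 4.004%, and by cholesterol genes 7.005% and 2.70%. Immediate early genes gave 12.8% and 9.41%, on either side of the 10% that the rule sets.

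AT2 cells were also put in 10 equal bins by class II share, of which bin 10 held the MHC II-high cells. H2-DMb1 was higher in each bin than in the one before, in both libraries, going through 69.3, 161 and 243 CPM in bins 1, 5 and 9 to 302 CPM in bin 10 of the tumor-bearing mouse, and through 72.0, 143 and 217 to 257 CPM for the control mouse. H2-DMa and H2-DMb2 were also higher in each bin than in the one before in both, with H2-DMb2 at 25.4 CPM in bin 1 and 129 CPM in bin 10 of the tumor-bearing mouse, and at 29.8 and 126 CPM in those of the control mouse. Areg ran through 86.5, 92.6 and 155 CPM to 262.5 CPM, and through 43.3, 54.3 and 86.8 to 135 CPM, so that the step from bin 9 to bin 10 was 1.70-fold and 1.56-fold. Krt8 was at 213, 215 and 258 CPM before 336 CPM, and at 238, 260 and 330 before 435 CPM. From bin 1 to bin 9 it rose 1.21-fold in the tumor-bearing and 1.39-fold in the control mouse. The last step was 1.30-fold and 1.32-fold. Fabp5 was at 900, 961 and 802 CPM before 594 CPM, and at 889, 968 and 682 before 506.5 CPM. MHC II-high cells were thus the end of a gradient for the DM genes, while most of the difference in Areg and Fabp5 lay in the upper bins.

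**Figure D4:**
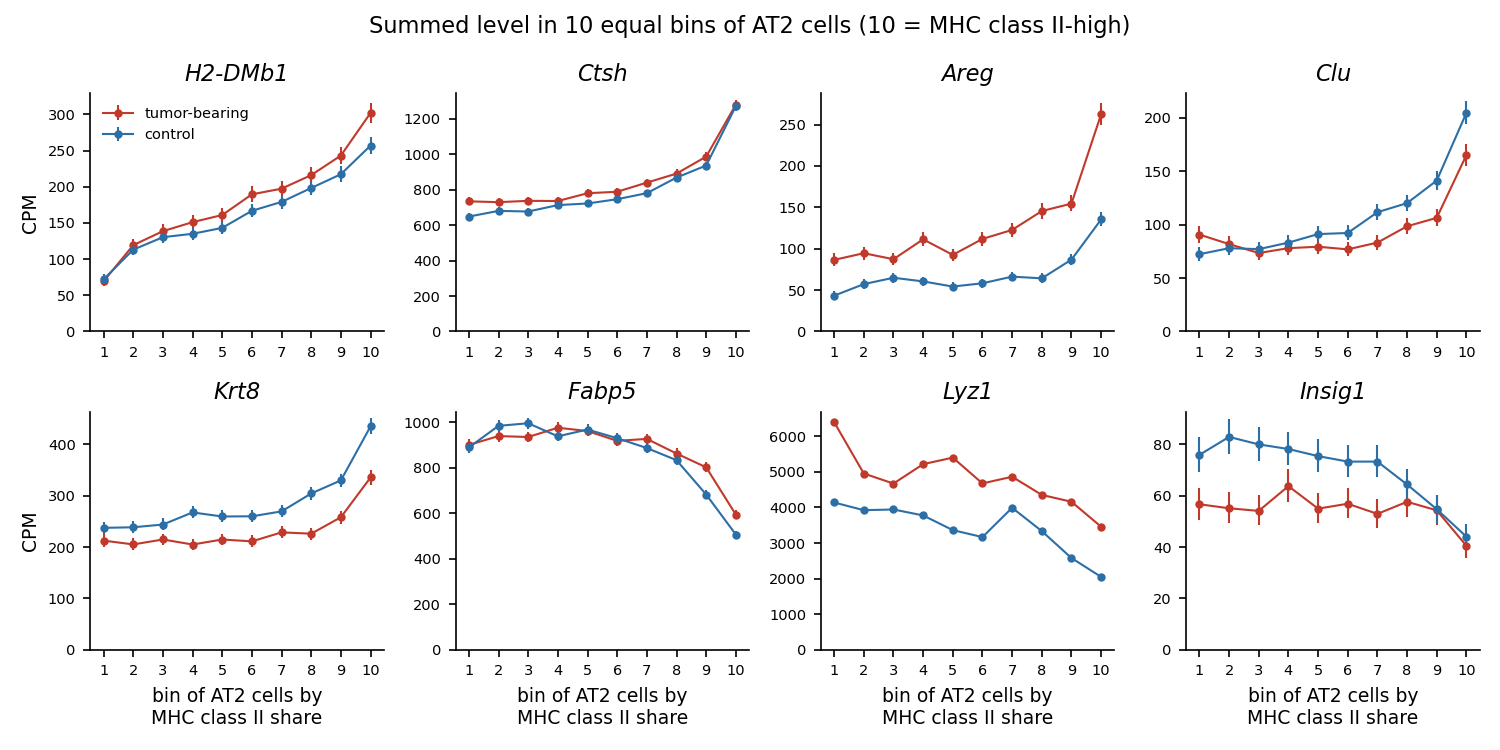
Summed level (CPM, y axis) of 8 genes in 10 equal bins of AT2 cells by MHC class II share (x axis, 10 being the MHC II-high cells), with exact 95% counting intervals; red is the tumor-bearing and blue the control mouse. H2-DMb1 climbed over all bins, Areg and Clu were highest in the last, Fabp5 and Insig1 were lowest there, and Lyz1 was lower in the last bin than in the first in both libraries.

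A UMI of any leukocyte list was seen in 66.5% of MHC II-high cells against 69.1% of other AT2 cells in the tumor-bearing mouse, and in 50.3% against 55.9% in the control mouse, with sums of 147 against 160 CPM and 104 against 126 CPM. Ptprc, which encodes CD45, had 0 UMIs in 671 and in 999 MHC II-high cells, and a floor of 3 cells stands for a share with a UMI of up to 0.447% and 0.300%, against 5 and 1 other AT2 cells with one. The 10 general leukocyte markers summed to 47.7 CPM in MHC II-high cells against 66.7 CPM in other AT2 cells of the tumor-bearing mouse, and 41.4 against 56.5 CPM in the control mouse, and 4 of the 10 were at 0 in each. For 16 macrophage and monocyte markers the sums were 29.8 against 38.4 CPM and 34.2 against 39.7 CPM, with 7 and 8 at 0, Marco, Mrc1, Adgre1 and C1qb among them. For 10 dendritic cell markers they were 3.12 against 1.69 CPM and 1.51 against 2.01 CPM, with 6 and 8 at 0, Flt3, Clec9a, Itgax and Ccr7 among them. For 10 B cell markers they were 26.7 against 23.8 CPM and 25.6 against 26.5 CPM, with 8 at 0 in each, Cd79a and Ms4a1 among them. Cd79b was the single one of the 10 that reached 20 CPM in both libraries. A UMI of the B cell list was in 20.7% of MHC II-high cells against 19.4% of other AT2 cells of the tumor-bearing mouse. In the control mouse it was in 17.0% against 17.3%. For 10 T and NK cell markers the sums were 0.984 against 0.563 CPM and 0.274 against 0.368 CPM, with 9 and 8 at 0. Neutrophil markers summed to 38.4 against 29.2 CPM in the tumor-bearing mouse, where empty droplets held 849 CPM, and to 0.823 against 0.782 CPM in the control mouse. When AT2 cells with any UMI of these lists were left out, all 12 higher and 3 lower genes were still called, in 209 and 446 MHC II-high cells. Sizes moved both ways: in the tumor-bearing mouse the transitional median was 0.77 in place of 0.48. Slpi's log2 ratio there was 0.30 in place of 0.50.

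Markers of club cells, the secretory cells of the airway, were lower in MHC II-high cells. Their sum was 5431 against 6954 CPM in the tumor-bearing mouse and 1606 against 3025 CPM in the control mouse, most of it Scgb1a1. Empty droplets held the same markers at 117350 and 14750 CPM, and the part of this free RNA in the result was not tested.

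**Figure D5:**
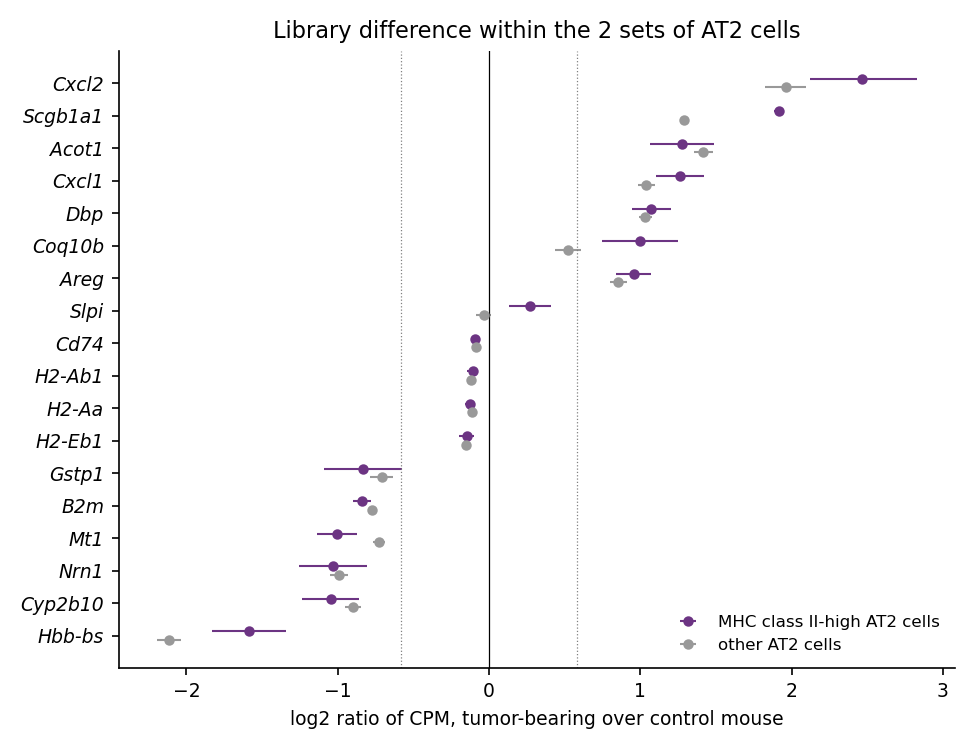
log2 ratio of summed CPM (x axis), tumor-bearing over control mouse, within MHC II-high cells (purple) and within other AT2 cells (grey), with exact 95% counting intervals and dotted lines at 1.5-fold. Shown are the 6 genes farthest in each direction within MHC II-high cells and the markers of the cells except Gsta1, which had too few UMIs; the 4 class II genes lay near 0 in both sets.

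Within MHC II-high cells the tumor-bearing mouse was then set against the control mouse. Of 1834 genes with at least 50 CPM, 27 were higher (1.47%) and 18 lower (0.981%), and in the other AT2 cells 19 of 1773 were higher (1.07%) and 15 lower (0.846%). Of the 27 and 18, 13 and 12 were called the same way in the other AT2 cells and 0 the opposite way. The difference between the 2 sets of cells was not tested. The 4 genes of the rule stood at 0.903 to 0.938 times the control level in MHC II-high cells and 0.899 to 0.940 times in the other AT2 cells. A fixed limit, set on the same 4 genes, restates this in shares of cells and is no separate support. At the control mouse's limit, 6.94% of AT2 cells (6.34 to 7.57) were MHC II-high in the tumor-bearing mouse. The control mouse has 10% by the rule. With cells thinned to 2000 UMIs these shares were 7.80% (7.17 to 8.47) and 10.1% (9.51 to 10.7).

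Of the 27 genes called higher, Cxcl2 had the largest ratio. Cxcl2, which attracts neutrophils, stood at 63.0 CPM in MHC II-high cells of the tumor-bearing mouse against 11.4 CPM in those of the control mouse, 5.53-fold (4.35 to 7.10), and 3.89-fold in other AT2 cells. Cxcl1, its close relative, was 2.40-fold higher (2.15 to 2.68), at 160 against 66.8 CPM, and 2.06-fold in other AT2 cells. Areg was 1.94-fold higher (1.79 to 2.10), and 1.81-fold in other AT2 cells, and was the single one of the 12 genes above that also differed between the libraries past the limit. Acot1, an acyl-CoA thioesterase, was 2.42-fold higher, Dbp, an output gene of the circadian clock, 2.10-fold, and Coq10b, a coenzyme Q binding protein, 1.99-fold. Scgb1a1 was 3.77-fold higher, at 5066 against 1343 CPM, where empty droplets held 114320 and 14043 CPM.

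Lower in the tumor-bearing mouse were B2m, at 516 against 922 CPM or 0.559 times (0.536 to 0.584), and H2-K1, at 526 against 876 CPM or 0.600 times (0.575 to 0.627). In other AT2 cells they were at 0.585 and 0.612 times. Mt1, a metallothionein, was at 0.498 times, Gstp1, a glutathione transferase, at 0.562 times, Cyp2b10, a cytochrome P450, at 0.484 times and Nrn1 at 0.490 times. Hbb-bs, a hemoglobin gene, was at 0.333 times, and at 0.992 times when cells were ranked after thinning to 2000 UMIs. Hemoglobin is known from red cells.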

How the data were processed

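Droplet libraries of sorted lung cells were used, 1 for each mouse, grouped by the treatment label. Per the labels and the values, the authors deposited unnormalised UMI counts, 28692 genes by 737280 barcodes in each matrix, written before cells were called. Reads were processed with Cell Ranger 2.1.0, per the series design, on mm10, per the submitters' processing notes. A cell annotation by the authors was not used here.

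Cells and members were taken by the rule given above, and the counts of a set were summed and scaled to CPM over all genes. Intervals are Poisson for levels, conditional binomial for ratios and Clopper-Pearson for shares, at 95%, and cover counting error only. List medians use members with at least 20 CPM in either set in both libraries. Named genes were up to 12 per direction, up to 6 per direction between libraries, the 7 markers and up to 4 per list, with others named after their values were seen; some genes that this rule names are not reported here. The members and lists were chosen with earlier results of these data known. Coordinates are from GENCODE vM21, which held 98.8% of gene identifiers. Doublet scores came from Scrublet in scanpy 1.11.5. Its automatic limit marked 0 cells for the tumor-bearing mouse and 1720 for the control mouse, so the 533 and 966 highest scores were marked, and cells were kept. Calculations ran in Python 3.11.15 with scipy 1.17.1 and were tested on simulated data. Alternatives for the share kept, ranking genes, depth, scaling, filters and limits were run.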

Additional observations from a re-analysis of the deposited data

How the results depend on the processing

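No paired analysis was possible because each group has 1 library, and no replicate could be left out. Against 12 genes higher in both libraries, 20 were higher in the top 5%, 6 in the top 20%, 37 with no CPM minimum and 1 with a 2-fold limit; under the other alternatives 9 to 18 were. Against 3 lower genes, there were 11 in the top 5% and 0 in the top 20%, 7 and 0 with Sftpc at 10% and 25%, 0 when ranked by the 3 H2 genes, 5 when ranked by Cd74, 0 when ranked after thinning, 5 with mean shares per cell, 8 with the rule genes and Sftpc left out of the total, 7 without cells with a leukocyte UMI, 5 without the highest Scrublet scores, 12 with a minimum of 20 CPM, 59 with none and 0 at 2-fold. The lower genes thus rest on the limits more than the higher ones. Against 27 genes higher in the tumor-bearing mouse within MHC II-high cells, there were 69 with a minimum of 20 CPM, 195 with none and 5 at 2-fold; against 18 lower, 52, 135 and 4. The chemokine list's median in the control mouse, 0.25, was -0.03124 in the top 5% and -0.009302 when ranked by the 3 H2 genes; the cause was not tested. A list median counted as moved when it shifted by more than the median reach, to 1 side, of its members' counting intervals. This limit comes from single genes and is not the spread of a list median. Of the other list medians under all alternatives, 46 moved and 394 did not.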

Other observations

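Some cells outside the AT2 rule also passed the class II limit of their library, 21 from the tumor-bearing and 52 from the control mouse. Their median Sftpc share was 10.4% and 8.93% of UMIs, under the 15% that the rule asks, and their highest class II share was 3.67% and 4.52%. The transitional list summed to 15824 and 11174 CPM in them, against 3159.5 and 3346 CPM in MHC II-high cells. In other AT2 cells it summed to 2355 and 2407 CPM. General leukocyte markers summed to 37.4 and 106 CPM in these cells, and B cell markers to 10.7 and 217 CPM. At least 3 UMIs of the general leukocyte markers were in 1 of the 21 and 1 of the 52 cells. For the B cell markers these were 0 and 1 cells, so the sums do not describe most of these cells.

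Saa3, an acute phase gene looked at after its values were seen, stood at 12.1 CPM in MHC II-high cells against 2.17 CPM in other AT2 cells of the tumor-bearing mouse. Of its 74 UMIs in the MHC II-high cells, 56 came from 1 cell, and 4 of 671 cells had any, so the ratio describes 1 cell.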
